A study of Homo sapiens with 6 samples.

Results

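The genes described here encode growth factor receptors of sympathetic neuroblasts and 1 of their ligands: ALK, RET, the neurotrophin receptors NTRK2, NTRK3 and NGFR, the GDNF family co-receptors GFRA1, GFRA2 and GFRA3, and BDNF. Their probe sets were found by gene symbol in the platform annotation, a rule that uses no measured value, although the genes were picked with earlier results of these data known, and comprise 22 probe sets of 9 genes, out of 22215 probe sets and 11963 genes on the array. RNA was taken from SH-SY5Y, a cell line of human neuroblastoma that serves as a neuronal model, and hybridised to 6 Affymetrix arrays. In 3 cultures the cells had been exposed for 4 h to free bilirubin at 140 nM (Bf 140 nM), which was dissolved in dimethyl sulfoxide (DMSO), and in 3 cultures to DMSO 0.6% alone. All held this 1 line, grown with foetal bovine serum, and the protocol in the labels gives separate flasks for the treatments and independent biological replicates. The comparison asks whether unconjugated bilirubin, a heme breakdown product that is toxic to neurons, changes these transcripts early. No detection calls were used, so no member was filtered out and all 22 probe sets were tested.

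These proteins bring survival and differentiation signals into the cell. TrkB (NTRK2) and TrkC (NTRK3) are tyrosine kinases that bind BDNF and neurotrophin-3, while p75 (NGFR) binds all neurotrophins without a kinase of its own. RET is the kinase of the GDNF family and needs a GFRA co-receptor, held in the membrane by a lipid anchor, to sense its ligands. ALK is a related receptor kinase of the developing sympathetic nervous system that is activated by mutation or amplification in some neuroblastomas. The kinases signal through adaptor proteins to the RAS-ERK and PI3K-AKT pathways.

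RET and ALK were the members with a clear signal. Values are normalised log2 values, and the rank of a value is given as the percentage of the 22215 probe sets on the same array that lay lower. Over the 6 arrays the RET probe set 211421_s_at averaged 11.87, above 95.8% of probe sets, and the RET probe sets 205879_x_at and 215771_x_at averaged 10.23 and 10.15, above 84.3% and 83.3%. The ALK probe sets 208212_s_at and 208211_s_at averaged 9.64 and 8.70, above 77.3% and 62.8%. Probe sets differ in how well they hybridise, so a rank describes signal and not the number of transcripts.

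To read the lower values, 45 probe sets of 30 genes of other tissues, such as liver, muscle and testis genes, served as a measure of the signal that presumably silent genes give. Their median was 6.88 and their 90th percentile 8.07. The 3 brightest belonged to the keratin gene KRT10, at up to 10.67. The 5 ALK and RET probe sets lay above 8.07, as did 48.1% of all probe sets, and 211421_s_at of RET was the 1 member probe set above the brightest of the comparison set. The other 17 probe sets, of 7 genes, lay below 8.07, with means from 6.37 for 213960_at of NTRK3 to 7.71 for GFRA3. For NTRK2, NTRK3, NGFR, GFRA1, GFRA2 and BDNF, expression could not be distinguished here from the signal of other-tissue genes. For GFRA3 the reading depended on the bound. With only the brightest probe set of each of the 30 genes, the 90th percentile was 7.65, and GFRA3 lay just above it.

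**Figure D1:**
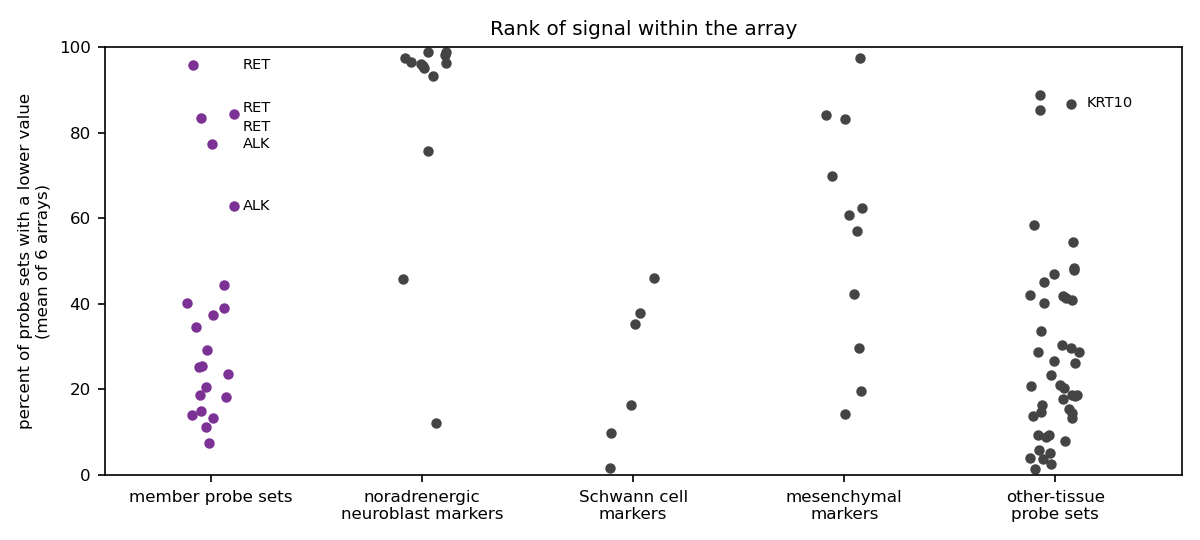
Mean rank of signal on the 6 arrays, as the percentage of probe sets on the same array with a lower value, for the 22 member probe sets, for marker genes of 3 cell types (brightest probe set of each gene) and for 45 probe sets of other-tissue genes. The 3 RET and 2 ALK probe sets rank from 62.8% to 95.8%, and the remaining members lie among the other-tissue probe sets.

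Ordered by the brightest probe set of each gene, the members ran RET, ALK, GFRA3 (7.71), NTRK3 (7.52), GFRA2 (7.31), NTRK2 (7.14), BDNF (6.80), NGFR (6.65) and GFRA1 (6.54). The lowest RET value on any array, 11.49, exceeded the highest ALK value, 9.88, and the lowest ALK value, 9.42, exceeded the highest GFRA3 value, 7.99. Further down, neighbours overlapped, except that NTRK3 (lowest 7.45) stayed above GFRA2 (highest 7.44) by a margin smaller than the spread of either. GFRA3, the co-receptor of artemin, was above NTRK3 on 4 of 6 arrays, and NGFR was above GFRA1, the GDNF co-receptor, on 4 of 6.

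The labelled cell type was checked with marker genes. Of 13 measured noradrenergic neuroblast markers, 11 lay above the 8.07 bound, among them the transcription factors GATA3, ISL1, GATA2 and PHOX2A and the enzyme DBH, while TH (6.57) and HAND2 (7.76) did not. The TH probe set ranked above 12.1% of probe sets. None of 6 Schwann cell markers lay above 8.07, with SOX10 at 7.76 as the highest. Each marker gene stands here by its brightest probe set. With other-tissue genes taken the same way, their 90th percentile was 7.65, and HAND2 and SOX10 lay above that. Of 11 mesenchymal markers 7 lay above 8.07, with TWIST1 at 12.38 as the brightest, and of 5 sensory neuron markers 2. The part of such cells in the results was not tested; in a bulk sample, fewer cells of a type and less RNA per cell cannot be told apart.

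The windows before the annotated start sites are shown for RET and ALK, which carried signal, and for GFRA1, the member of lowest rank. They are the 250 bases upstream of the most 5′ start in RefSeq, on build GRCh38.p14, with GC boxes (GGGCGG, or CCGCCC on the other strand, overlaps included) in capitals. The windows lie at chr10:43076819-43077068 on the + strand for RET, chr2:29921587-29921836 on the - strand for ALK and chr10:116274706-116274955 on the - strand for GFRA1.
RET: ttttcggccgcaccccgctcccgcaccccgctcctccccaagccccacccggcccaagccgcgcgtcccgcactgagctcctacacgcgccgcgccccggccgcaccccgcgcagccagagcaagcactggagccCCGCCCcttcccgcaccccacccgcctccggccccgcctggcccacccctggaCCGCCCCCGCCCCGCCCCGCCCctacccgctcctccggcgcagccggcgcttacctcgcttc
ALK: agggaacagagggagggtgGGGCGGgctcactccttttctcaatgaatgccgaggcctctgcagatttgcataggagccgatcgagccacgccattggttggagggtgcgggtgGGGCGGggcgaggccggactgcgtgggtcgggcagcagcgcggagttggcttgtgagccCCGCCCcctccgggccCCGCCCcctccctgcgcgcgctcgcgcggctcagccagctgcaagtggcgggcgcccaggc
GFRA1: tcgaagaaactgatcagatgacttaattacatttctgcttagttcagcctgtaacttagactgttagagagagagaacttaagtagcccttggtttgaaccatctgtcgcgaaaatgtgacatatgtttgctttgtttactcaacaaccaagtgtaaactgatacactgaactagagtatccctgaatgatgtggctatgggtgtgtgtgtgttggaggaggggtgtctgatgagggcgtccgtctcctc

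The RET window held 5 GC boxes and 33 CpG dinucleotides, the ALK window 4 and 24, and the GFRA1 window 0 and 5. Across 27305 genes with an entry, 42.2% of such windows held at least 1 GC box and the median number of CpG dinucleotides was 10. Entries were found for 7 members. RET and ALK had 2 annotated starts each, GFRA1 and NTRK2 4 each, BDNF 5, and NTRK3 and GFRA3 1 each. Only the window of the most 5′ start was examined, and the windows of other starts may differ. NTRK3 held 2 GC boxes and 23 CpG dinucleotides, while GFRA3, BDNF and NTRK2 held 1 GC box each. NTRK3 was close to ALK in CpG dinucleotides, with fewer GC boxes. These are matches of letters, and nothing was measured at the promoters.

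No difference between Bf 140 nM and DMSO 0.6% passed the test for these transcripts, although 3 probe sets of BDNF and NTRK3 had values that kept the groups apart. Of 22 member probe sets, 0 passed an adjusted p of 0.10 by limma, against 0% of all probe sets. An unadjusted p under 0.05 was reached by 0 members and by 17 of 22215 probe sets (0.0765%). Without any change, a test with exact p-values would reach this level for about 0.05 of probe sets, so these p-values were conservative. With same-numbered arrays paired in the fit, 92 probe sets reached it. In the unpaired fit the lowest unadjusted p among the members was 0.175, and the adjusted p was 1.00 for each. Of the members' differences, taken as Bf 140 nM minus DMSO 0.6%, 12 were above 0 and 10 below (63.2% of all probe sets were above 0), with a median of 0.02 where that of all probe sets was 0.03. They ranged from -0.14 to 0.17.

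The intervals bound what could have been missed. The 95% confidence interval stayed within 1.5-fold in both directions for 18 of 22 member probe sets, and for 85.7% of all probe sets. The 4 exceptions were 205879_x_at and 215771_x_at of RET and 221795_at and 221796_at of NTRK2. The widest interval, of 215771_x_at, ran from 0.611-fold to 1.68-fold, and all 22 lay within 2-fold, as did 97.8% of all probe sets. These intervals are from the unpaired fit, so variation shared by same-numbered arrays counts toward their width. Intervals of the paired fit are not given here. At the same difference, the unadjusted p of 205879_x_at by limma was 0.756 unpaired and 0.472 paired. That of 215311_at of NTRK3 was 0.177 unpaired and 0.267 paired. The values follow a generalised log2 scale that compresses dim signals, so for the 17 dim probe sets a true fold may be larger than stated.

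**Figure D2:**
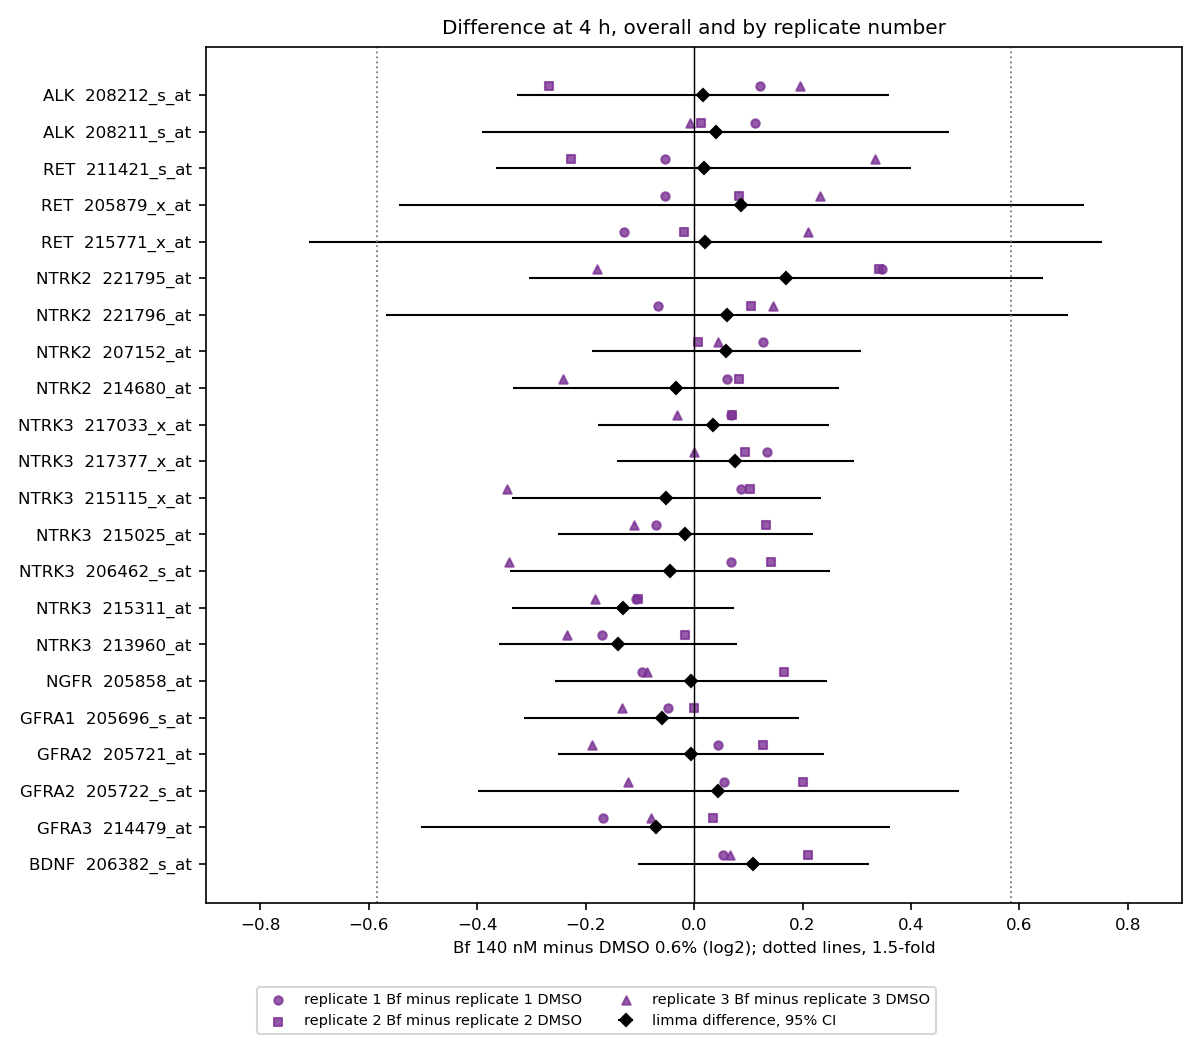
Bf 140 nM minus DMSO 0.6% (log2) for the 22 member probe sets. The limma estimate of the unpaired fit and its 95% confidence interval are in black and the difference within each replicate number in purple. Dotted lines mark 1.5-fold. Every interval spans 0, and 4 intervals reach beyond 1.5-fold.

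RET, the GDNF family kinase, had values of 11.94, 11.87 and 11.83 for 211421_s_at in Bf 140 nM replicates 1, 2 and 3, against 11.99, 12.09 and 11.49 in DMSO 0.6% replicates 1, 2 and 3. The Bf 140 nM values lay between the highest and the lowest DMSO 0.6% values, and DMSO 0.6% replicate 3 was the lowest of all. The difference was 0.02 (SE 0.16), a 1.01-fold ratio (95% CI 0.777 to 1.32). By replicate number it was -0.05, -0.23 and 0.33.

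The probe set 205879_x_at of RET had 10.37, 10.58 and 9.87 in Bf 140 nM, against 10.43, 10.49 and 9.64 in DMSO 0.6%. For 215771_x_at the values were 10.28, 10.49 and 9.69 in Bf 140 nM, against 10.41, 10.51 and 9.48 in DMSO 0.6%. In both groups replicate 3 stood well below replicates 1 and 2, so the groups overlapped throughout. The differences were 0.09 (SE 0.27) and 0.02 (SE 0.31). These probe sets tracked each other closely (r = 0.995 over 6 arrays), and their suffix marks probes that may also bind other transcripts.

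ALK, the receptor kinase tied to neuroblastoma, had 9.88, 9.46 and 9.62 for 208212_s_at in Bf 140 nM, against 9.75, 9.73 and 9.42 in DMSO 0.6%. For 208211_s_at it had 8.96, 8.80 and 8.39 in Bf 140 nM, against 8.85, 8.79 and 8.40 in DMSO 0.6%. The groups overlapped for both, and the second was low in replicate 3 of either group. The differences were 0.02 (SE 0.15) and 0.04 (SE 0.18), or 1.01-fold (0.798 to 1.28) and 1.03-fold (0.763 to 1.38). By replicate number they were 0.12, -0.27 and 0.19 for 208212_s_at and 0.11, 0.01 and -0.01 for 208211_s_at.

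The sign of these small differences changed with single arrays. DMSO 0.6% replicate 3 had a beta-actin signal 2.21 higher at the 3′ than at the 5′ probe set, a sign of incomplete labelled transcripts, where the other 5 arrays had 0.105 to 0.885. This array was the lowest of the DMSO 0.6% arrays for all 5 ALK and RET probe sets, so leaving it out was bound to lower their differences. Without it, all 5 were below 0, at -0.09 and -0.10 for ALK and at -0.17, -0.19 and -0.31 for RET, and still 0 member probe sets passed. Without Bf 140 nM replicate 3, the lowest of its group for all but 208212_s_at, they stayed above 0. They were then 0.03 and 0.20 for ALK and 0.04, 0.29 and 0.25 for RET. Without DMSO 0.6% replicate 1 or 2 they also stayed above 0. Without Bf 140 nM replicate 1, 4 of the 5 were below 0, at -0.10 and -0.08 for ALK and -0.01 and -0.04 for 211421_s_at and 215771_x_at of RET. Without Bf 140 nM replicate 2, 208211_s_at of ALK was at -0.00088 and 205879_x_at and 215771_x_at of RET were at -0.07 and -0.15. With the beta-actin difference included in the model, the 5 ALK and RET differences were below 0, from -0.16 for 215771_x_at to -0.04 for 208212_s_at. DMSO 0.6% replicate 3 stood apart in that beta-actin difference, so this model is not a check separate from leaving that array out. Quantile normalization of the arrays turned 4 of the 5, to between -0.06 and -0.01, the exception being 205879_x_at of RET.

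**Figure D3:**
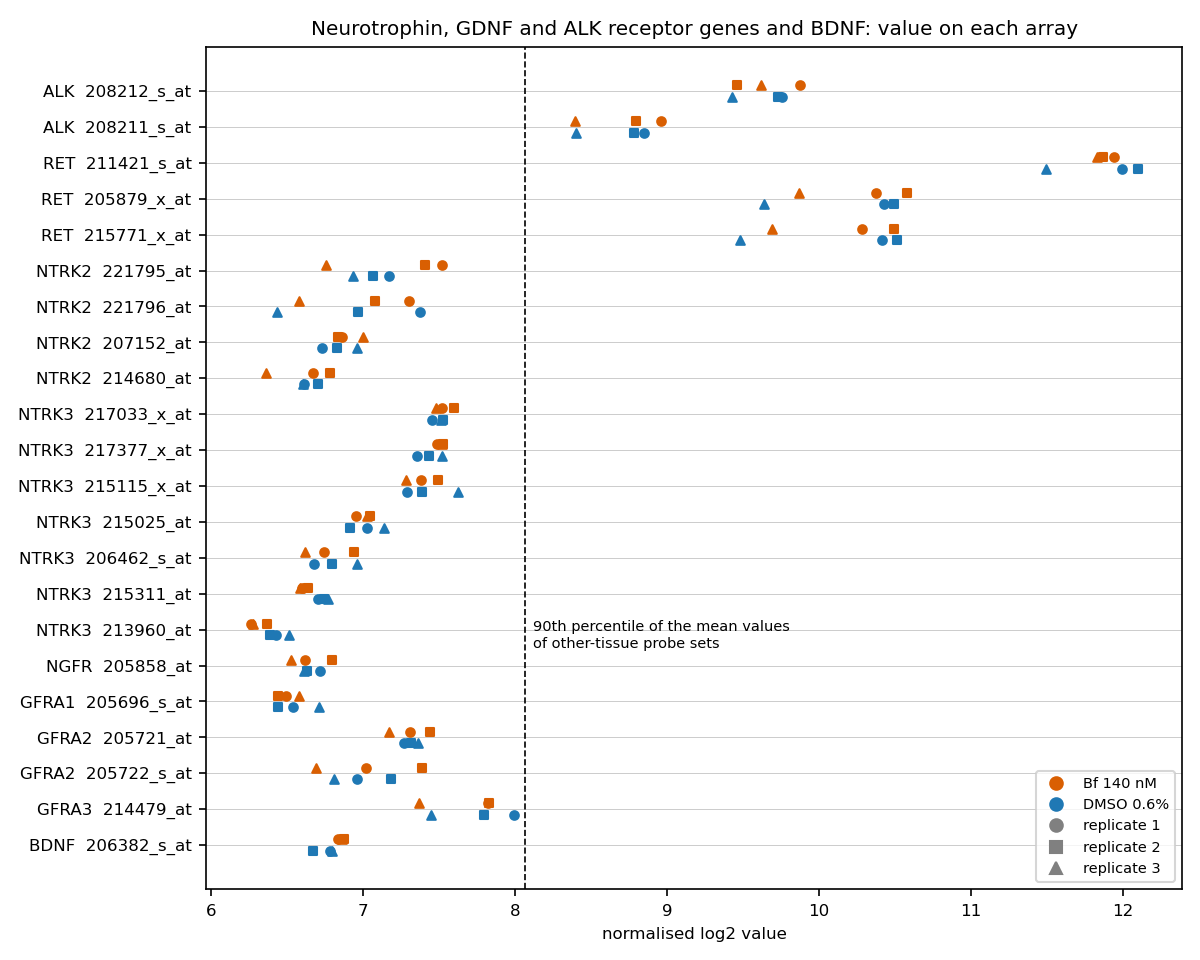
Normalised log2 value on each array for the 22 member probe sets, with Bf 140 nM in orange above DMSO 0.6% in blue and marker shapes for the replicate number; the dashed line marks the 90th percentile of the other-tissue probe sets, 8.07. RET and ALK lie right of the line, and the groups overlap for all probe sets except BDNF and 2 of NTRK3.

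The ligand BDNF had 6.84, 6.88 and 6.86 for its 1 probe set in Bf 140 nM, against 6.78, 6.67 and 6.79 in DMSO 0.6%. All 3 Bf 140 nM values lay above all 3 DMSO 0.6% values. Their difference was 0.11 (SE 0.09), a 1.08-fold ratio (0.930 to 1.25), with 0.05, 0.21 and 0.07 by replicate number. It did not pass the test (unadjusted p = 0.267, adjusted p = 1.00 by limma), and its rank, above 18.6% of probe sets, was that of other-tissue genes. The sign was the same under all 14 alternatives run, with values from 0.06 to 0.14. Leaving out arrays or replicate numbers, the replicate block and the trended fit could not turn it, because the groups did not overlap. With quantile normalization, median centring and the beta-actin covariate, which could, the difference was 0.09, 0.08 and 0.12.

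TrkC, the product of NTRK3, was covered by 7 probe sets. The 2 dimmest separated the groups in the other direction. For 215311_at the values were 6.60, 6.64 and 6.59 in Bf 140 nM, against 6.71, 6.74 and 6.77 in DMSO 0.6%, a difference of -0.13 (SE 0.09). For 213960_at they were 6.26, 6.37 and 6.28 in Bf 140 nM, against 6.43, 6.39 and 6.51 in DMSO 0.6%, a difference of -0.14 (SE 0.09). Every Bf 140 nM value was the lower for both, by replicate number too, and neither passed the test (unadjusted p = 0.177 and 0.175, adjusted p = 1.00 by limma). The other 5 NTRK3 probe sets overlapped between groups, with differences from -0.05 to 0.08 and a rank of at most 40.2%, so the gene as a whole showed no common direction.

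Groups that did not overlap were thus seen for 1 member probe set higher in Bf 140 nM, where 1.68% of all probe sets were, and for 2 lower, where 0.981% were, so for 3 of 22 in either direction against 2.66%. The difference had 1 sign in all 3 replicate numbers for 4 member probe sets. BDNF and 207152_at of NTRK2 were the 2 with positive differences throughout, as were 8.96% of all probe sets, and the 2 of NTRK3 those with negative ones, as were 4.7%. The 2 lower ones belong to the same gene and varied together over the 6 arrays (r = 0.908), so they are not separate observations.

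TrkB, the product of NTRK2, was covered by 4 probe sets. Its brightest probe set, 221795_at, had 7.52, 7.41 and 6.75 in Bf 140 nM, against 7.17, 7.07 and 6.93 in DMSO 0.6%. The replicates 1 and 2 of Bf 140 nM were the highest and its replicate 3 the lowest of the 6 arrays. The difference of 0.17 (SE 0.20) was the largest among the members, but it was 0.35, 0.34 and -0.18 by replicate number. Without Bf 140 nM replicate 3 it was 0.41 with an unadjusted p of 0.0142, yet its adjusted p was 1.00 by limma. Leaving out the lowest array of its group was bound to raise the difference. In that setting 48 of 22215 probe sets had an unadjusted p under 0.05.

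A second NTRK2 probe set, 221796_at, is annotated to the same sequence and had 7.31, 7.08 and 6.58 in Bf 140 nM, against 7.37, 6.97 and 6.44 in DMSO 0.6%. Here the groups ran side by side, with a difference of 0.06 (SE 0.27). The probe sets 207152_at and 214680_at had differences of 0.06 (SE 0.11) and -0.03 (SE 0.13). Over the 6 arrays 207152_at moved opposite to 221796_at (r = -0.873), to 221795_at (r = -0.598) and to 214680_at (r = -0.626). The other 3 varied together, with r = 0.785 for 221795_at and 221796_at, 0.774 for 221795_at and 214680_at and 0.509 for 221796_at and 214680_at.

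For the co-receptors, GFRA3 had 7.82, 7.83 and 7.37 in Bf 140 nM, against 7.99, 7.79 and 7.45 in DMSO 0.6%, a difference of -0.07 (SE 0.18). Replicate 3 was again low in both groups. GFRA2, which senses neurturin, had differences of -0.01 (SE 0.10) for 205721_at and 0.04 (SE 0.19) for 205722_s_at. GFRA1 had 6.50, 6.44 and 6.58 in Bf 140 nM, against 6.54, 6.44 and 6.71 in DMSO 0.6%, a difference of -0.06 (SE 0.11). The neurotrophin receptor NGFR had 6.62, 6.80 and 6.52 in Bf 140 nM, against 6.72, 6.63 and 6.61 in DMSO 0.6%, a difference of -0.01 (SE 0.11). All 4 of these genes overlapped between groups and lay in the range of other-tissue genes, GFRA3 just above their 90th percentile by brightest probe set, 7.65.

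The mean of the 2 same-numbered arrays differed between numbers by more than the treatment difference for 19 of 22 member probe sets, and for 89.6% of all probe sets. That range was 0.92 for 215771_x_at and 0.78 for 205879_x_at of RET, 0.83 for 221796_at of NTRK2, 0.51 for 208211_s_at of ALK and 0.50 for GFRA3. Its median was 0.20 over the members and 0.22 over all probe sets.

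Replicate 3 was the lowest of its group in both groups for 10 of 22 member probe sets, against 24.1% of all probe sets. These 10 were all 3 of RET, 208211_s_at of ALK, 221795_at, 221796_at and 214680_at of NTRK2, 205722_s_at of GFRA2, and those of GFRA3 and NGFR. It was the highest in both groups for GFRA1 and for 207152_at of NTRK2, against 17.4% of all probe sets. Replicate 3 also had the highest beta-actin 3′ minus 5′ difference in each group, 0.885 in Bf 140 nM and 2.21 in DMSO 0.6%, and the lowest array median, 7.94 and 7.85. The part of RNA quality in the low replicate 3 values was not tested.

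**Figure D4:**
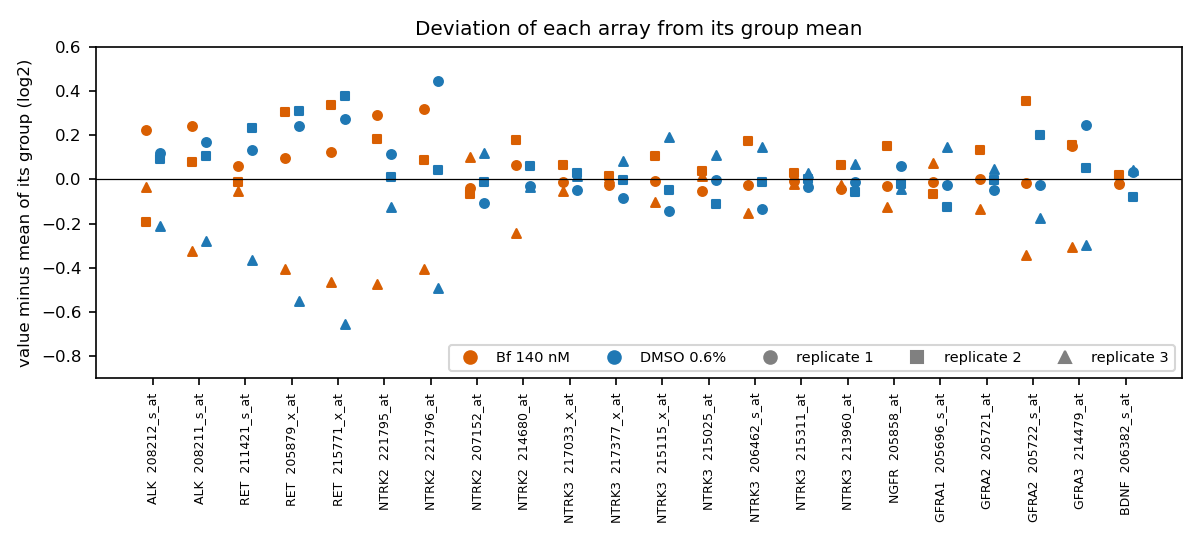
Value of each array minus the mean of its group (log2) for the 22 member probe sets, Bf 140 nM in orange left of DMSO 0.6% in blue, with marker shapes for the replicate number. The triangles of replicate 3 lie lowest in both groups for RET, 208211_s_at of ALK, 3 probe sets of NTRK2, GFRA3, NGFR and 205722_s_at of GFRA2.

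Some genes followed the members over the 6 arrays. The genes most like RET (211421_s_at) were AIDA (r = 0.996), SUN1 (0.993) and C1orf21 (0.992), and those most like ALK (208212_s_at) were U2SURP (0.998), MEGF9 (0.991) and TIMELESS (0.989). They were picked as the best of 6846 genes above the median level. An r above 0.9 was reached by 6.76% of these genes for RET and 3.93% for ALK, and the arrays share the replicate pattern described above.

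The rest of the pathway was examined through 8 lists of genes, and 0 genes of any list passed the threshold by limma. Among ligands, midkine (MDK) and pleiotrophin (PTN), heparin-binding growth factors that have been tied to ALK, ranked above 93.5% and 96.2% of probe sets. MDK had 11.68, 11.45 and 11.25 in Bf 140 nM, against 11.61, 11.72 and 10.58 in DMSO 0.6%, a difference of 0.16 (SE 0.30). PTN had 11.59, 11.76 and 12.58 in Bf 140 nM, against 11.43, 12.03 and 13.12 in DMSO 0.6%, a difference of -0.22 (SE 0.44). Both overlapped between groups, with MDK low and PTN high in replicate 3 of either group. The RET ligand genes NRTN, ARTN and PSPN had differences of -0.04, -0.0044 and 0.04, and 5 of 11 listed ligand genes were measured.

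Of 5 other receptors and co-receptors measured, 1 was above 0 and the median was -0.08, with the RET-independent GDNF receptor NCAM1 at -0.12 (SE 0.13) and GFRA4 at -0.11 (SE 0.11). Among 26 receptor adaptors 17 were above 0, with a median of 0.02. DOK5, which docks on RET, was at -0.11 (SE 0.10) and FRS3, an adaptor of Trk receptors, at 0.11 (SE 0.13). None of these lists had a gene whose groups did not overlap.

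The RAS-ERK and PI3K-AKT list had 18 of 22 genes above 0 and a median of 0.11, where the median of all genes was 0.03 and 7621 of 11963 were above 0. MAPK7, the ERK5 kinase that carries retrograde neurotrophin signals, was at 0.20 (SE 0.12) and the transcription factor CREB1 at 0.21 (SE 0.13). By replicate number the list's medians were 0.11, -0.07 and 0.32. Without DMSO 0.6% replicate 3, the array with the beta-actin difference of 2.21, its median was 0.07, without Bf 140 nM replicate 3 0.04, and with quantile normalization 0.05. No gene in it separated the groups.

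ERK brakes and early targets had 15 of 19 genes above 0 and a median of 0.08, which was 0.02 without DMSO 0.6% replicate 3, 0.05 without Bf 140 nM replicate 2 or with arrays centred on their medians, and 0.15 and 0.19 without Bf 140 nM replicate 3 and DMSO 0.6% replicate 2. SPRY4, an inhibitor of receptor kinase signalling, had 9.33, 9.37 and 9.22 in Bf 140 nM, against 9.14, 9.14 and 9.04 in DMSO 0.6%. ETV5, an ETS factor that GDNF and RET induce in the mouse kidney, had 10.30, 10.05 and 10.47 in Bf 140 nM, against 10.01, 10.04 and 10.01 in DMSO 0.6%. Both groups of values were apart, by a margin of 0.01 for replicate 2 of ETV5. With Bf 140 nM higher, 2 of 19 genes of the list were thus apart, against 220 of 11963 genes. These 2 genes were named for the lowest unadjusted p in their list, a choice that favours such separation. Their differences were 0.20 (SE 0.09) and 0.25 (SE 0.13). Neither passed (unadjusted p = 0.0684 and 0.0809, adjusted p = 1.00 by limma).

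For p75 interactors 12 of 18 genes were above 0 with a median of 0.04. The kinase RIPK2 was at 0.17 (SE 0.11) and the protease ADAM17, which sheds p75, at 0.13 (SE 0.13). For receptor turnover and phosphatases 10 of 13 were above 0 with a median of 0.03, the phosphatase PTPN6 at -0.14 (SE 0.14) and SQSTM1 at 0.09 (SE 0.11). For regulators and processing enzymes of BDNF 6 of 14 were above 0 with a median of -0.02, the calcium-dependent kinase CAMK4 at 0.18 (SE 0.16) and the CREB coactivator CRTC1 at -0.16 (SE 0.15).

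The sign of most of these small list medians changed with single arrays. Without Bf 140 nM replicate 3 the median was -0.04 for p75 interactors, -0.03 for turnover, -0.02 for adaptors and 0.03 for BDNF regulators, and without Bf 140 nM replicate 2 that of p75 interactors was 0.12. Without DMSO 0.6% replicate 3 the median was -0.03 for turnover and 0.03 for ligands. Without Bf 140 nM replicate 1 it was 0.05 for ligands and 0.0071 for BDNF regulators, and without DMSO 0.6% replicate 2 it was 0.05 for BDNF regulators. With quantile normalization the medians of p75 interactors, turnover and adaptors were -0.0023, -0.0027 and -0.02, and with arrays centred on their medians that of adaptors was -0.01. The median of the other receptors stayed below 0 when any 1 array was left out, from -0.11 to -0.03.

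**Figure D5:**
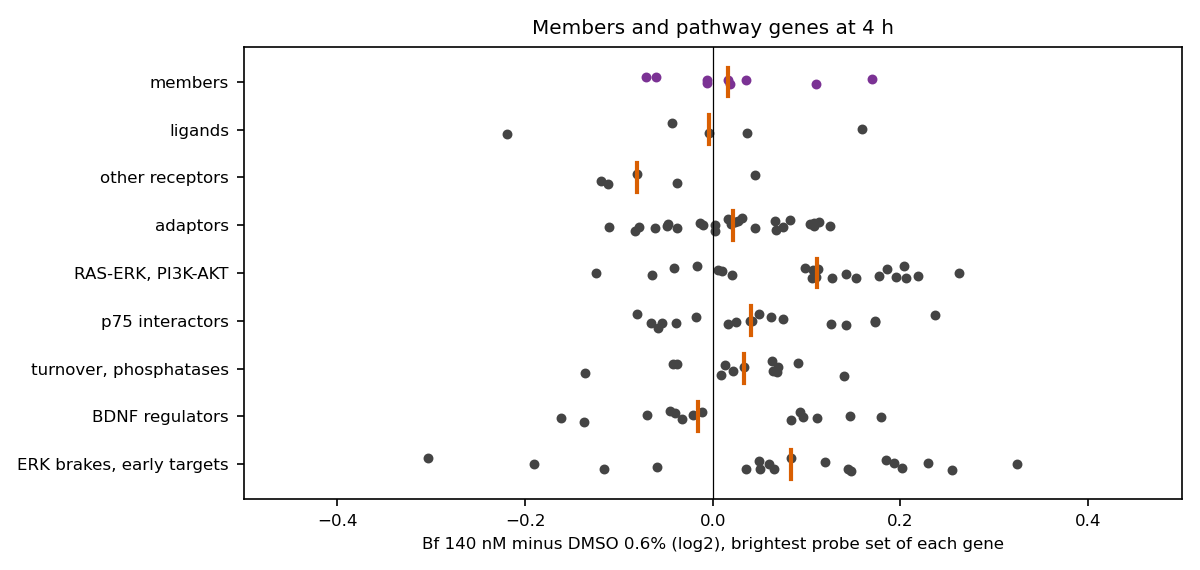
Bf 140 nM minus DMSO 0.6% (log2) for the brightest probe set of each member gene and each gene of 8 pathway lists, 1 point per gene, with orange bars at the medians. The medians lie between -0.08 for other receptors and 0.11 for the RAS-ERK and PI3K-AKT list, and that of the members is at 0.02.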

How the data were processed

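Transcript levels were measured on 6 Affymetrix GeneChip arrays. The authors computed intensities with GCOS and applied variance-stabilizing normalization (justvsn) in R 2.5.0, and the deposited values are on a generalised log2 scale. The sources used here do not say how probes were combined, and arrays carry no read depth, so their number limits the precision. The table held 22277 probe sets, of which 62 controls were left out of the tests. Gene names came from the platform annotation and were updated by Entrez identifier: 19064 probe sets had 1 symbol, 1043 several and 2108 none, and 196 of 243 listed genes were matched.

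Bf 140 nM minus DMSO 0.6% was tested with limma 3.58.1 in R 4.3.3, in a two-sided, unpaired fit with p-values adjusted over all tested probe sets by Benjamini-Hochberg, a threshold of 0.10 and 95% confidence intervals. The test was checked on simulated data. The setting and outcome of that check are not given here, so it does not show how exact the p-values of these arrays were. SAM, the test of the study's methods, was not run. Per the labels, treatments had separate flasks and replicates were independent. The groups share replicate numbers, and deviations of same-numbered arrays from their group means correlated at 0.60, 0.23 and 0.57 for numbers 1, 2 and 3, above the minimum of 0.1 set for pairing, so a fit with the replicate block was an alternative. The others were quantile normalization, median centring, a filter on dim probe sets, a trended robust fit, the beta-actin covariate and leaving out each array. The members and gene lists were chosen with earlier results of these data known. Named genes were all members, measured ligands and the 2 genes of lowest unadjusted p in each other list, each by its brightest probe set, and for RET and ALK the 3 genes of highest correlation. By exact permutation tests array median, interquartile range and the 3′ minus 5′ differences of beta-actin and GAPDH had p = 0.5, 0.8, 0.9 and 1, where 0.1 is the smallest possible with 3 against 3. Promoter windows and their coordinates are from RefSeq; the deposited values name no genome build.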

Additional observations from a re-analysis of the deposited data

How the results depend on the processing

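No member probe set passed the threshold under any alternative run. Over the whole array 0 probe sets passed, except 2 under the replicate block without pair 3. With the replicate block, which pairs same-numbered arrays, both counts were 0, 92 probe sets had an unadjusted p under 0.05, and no call changed. Some signs changed. With quantile normalization the differences were -0.058 and -0.010 for ALK 208212_s_at and 208211_s_at and -0.0087 and -0.039 for RET 211421_s_at and 215771_x_at. With arrays centred on their medians they were -0.016 for ALK 208212_s_at and -0.015 and -0.012 for RET 211421_s_at and 215771_x_at. With the beta-actin covariate they were -0.041 and -0.049 for ALK 208212_s_at and 208211_s_at, -0.071, -0.062 and -0.16 for RET 211421_s_at, 205879_x_at and 215771_x_at, -0.087 for NTRK2 221796_at, 0.011 for NTRK3 215025_at and -0.0092 for GFRA2 205722_s_at.

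Under the replicate block without pair 1, ALK 208212_s_at was at -0.036, NTRK3 215025_at at 0.011 and NGFR at 0.039, and without pair 2 GFRA2 205722_s_at was at -0.033. Without pair 3, ALK 208212_s_at was at -0.073, RET 211421_s_at and 215771_x_at at -0.14 and -0.074, NTRK2 214680_at at 0.072, NTRK3 215115_x_at, 215025_at and 206462_s_at at 0.095, 0.032 and 0.10, NGFR at 0.035 and GFRA2 205721_at at 0.085. The cause was not tested.

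Leaving out 1 array in turn, the ranges were -0.095 to 0.11 and -0.099 to 0.20 for ALK 208212_s_at and 208211_s_at, -0.17 to 0.14, -0.19 to 0.29 and -0.31 to 0.25 for RET 211421_s_at, 205879_x_at and 215771_x_at, -0.18 to 0.28 and -0.12 to 0.088 for NTRK2 221796_at and 214680_at, -0.12 to 0.044, -0.072 to 0.040 and -0.13 to 0.031 for NTRK3 215115_x_at, 215025_at and 206462_s_at, -0.081 to 0.056 for NGFR, -0.12 to 0.014 for GFRA1, -0.072 to 0.061 and -0.13 to 0.22 for GFRA2 205721_at and 205722_s_at, and -0.22 to 0.083 for GFRA3. Without DMSO 0.6% replicate 3, 12 of 22 signs changed. With 3 arrays a group and 17 member probe sets in the range of other-tissue genes, small changes of these transcripts could not be seen.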
